A study of Mus musculus with 29 samples.

Results

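Connexins and pannexins are 2 families of membrane proteins that form large pores. The 8 genes described here were the rows of the deposited read count table with the symbols Gja1, Gjb6, Gjb2, Gjb1, Gjc3, Gjd2, Panx1 and Panx2 among 36172 gene rows. The rule that picked them was a list of symbols and used no measured value itself, but the list was drawn up with earlier results of these data known. They were followed across 29 RNAseq libraries in 6 groups from mice in which ribosomes of astrocytes or of microglia had been tagged.

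Connexins assemble into channels that dock between neighbouring cells as gap junctions, through which ions and small metabolites pass. Astrocytes are joined into a network mainly by the products of Gja1 and Gjb6, oligodendrocytes carry connexins of their own in myelin, and Gjd2 is the main connexin of electrical synapses between neurons. Pannexins are unrelated in sequence to connexins and form channels in single membranes that release ATP.

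The question was which of these genes were enriched or depleted in RNA on the tagged ribosomes of each cell type. Mice heterozygous for Aldh1l1-cre/ERT2+; NuTRAP+ or for Cx3cr1-cre/ERT2+; NuTRAP+ carried a ribosomal protein fused to EGFP, silent until Cre acts. All animals of both lines carried the NuTRAP allele and received tamoxifen by injection on 5 consecutive days at about 3 months of age, so there was no group without the tag. Brain tissue of one hemisphere was homogenized and cleared to give the input, and anti-GFP beads then split it into bound RNA (positive fraction) and unbound RNA (negative fraction). For the Aldh1l1 line the table held both bead fractions of 3 mice. For the Cx3cr1 line it held input and both bead fractions of 6 mice, together with brain RNA isolated without pull-down from 5 of them, called whole tissue here. Input and whole tissue of the Aldh1l1 line were not analysed here. The methods name males and females, but the labels give no sex per mouse. The Aldh1l1 driver labels astrocytes, and the Cx3cr1 driver labels microglia together with other cells that express Cx3cr1, such as macrophages. Mice are named below by the numbers in their labels.

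Libraries held between 4260949 and 26857866 reads, with a median of 21017054, the lowest being the whole tissue of mouse 210. In the Aldh1l1 line, the 5 astrocyte markers Aldh1l1, Aqp4, Gfap, Slc1a2 and Slc1a3 summed to between 9467 and 16507 CPM (read counts scaled to a common library total) in the positive fraction against 2059.8 to 2861 in the negative fraction. In the Cx3cr1 line, the 5 microglial markers Cx3cr1, C1qa, Csf1r, P2ry12 and Tmem119 summed to between 1505 and 3728 CPM in the positive fraction against 189.6 to 207 in the input, so that both labelled cell types matched their markers. Within the Cx3cr1 positive fraction, the libraries of mice 155, 192 and 194 stood apart. The sum of 9 cytoskeletal genes (Myh9, Myh10, Actn1, Actn4, Dbn1, Lima1, Gsn, Svil and Mprip, chosen after their values were seen) was 16003, 8871 and 16327 CPM there, against 1126, 1087 and 3694 CPM in mice 209, 210 and 277 and 1192 to 1389 CPM in the inputs of that line. The same 3 libraries held 2375, 1542 and 3142 CPM of Xist and the other three 2.47 to 3.46 CPM, so this difference and the sex of the mice cannot be told apart. Many of the results for that fraction are therefore also given without those mice.

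The 3 connexins that rose together in astrocyte-tagged RNA, Gja1, Gjb6 and Gjb2, are shown first by the bases before their start sites. Gja1 lies on chromosome 10 (56377300 to 56390419, plus strand, mm10), and Gjb6 (57123301 to 57133611) and Gjb2 (57098602 to 57104702) lie next to each other on the minus strand of chromosome 14, with 18598 bases between them. The 250 bases upstream of each annotated start are given 5′ to 3′ on the strand of the gene, from RefSeq on GRCm38.p6, in lower case with the motif matches in capitals.
Gja1, chr10:56377050-56377299, plus strand: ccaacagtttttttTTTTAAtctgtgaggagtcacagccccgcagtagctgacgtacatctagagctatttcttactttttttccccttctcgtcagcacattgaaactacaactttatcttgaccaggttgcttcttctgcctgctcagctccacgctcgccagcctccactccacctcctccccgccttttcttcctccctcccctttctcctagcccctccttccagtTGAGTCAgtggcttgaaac
Gjb6, chr14:57133612-57133861, minus strand: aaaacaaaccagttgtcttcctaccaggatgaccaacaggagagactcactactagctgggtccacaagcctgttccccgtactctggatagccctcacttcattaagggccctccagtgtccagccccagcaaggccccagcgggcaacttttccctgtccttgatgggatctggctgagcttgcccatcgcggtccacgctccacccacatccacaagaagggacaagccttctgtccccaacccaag
Gjb2, chr14:57104703-57104952, minus strand: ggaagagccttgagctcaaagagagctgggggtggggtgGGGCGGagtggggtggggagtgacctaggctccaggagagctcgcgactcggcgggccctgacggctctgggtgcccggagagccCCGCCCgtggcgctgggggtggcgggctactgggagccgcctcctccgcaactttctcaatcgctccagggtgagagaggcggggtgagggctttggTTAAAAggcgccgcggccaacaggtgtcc
The windows differed in base composition, with 50.0% G or C upstream of Gja1, 56.8% upstream of Gjb6 and 69.2% upstream of Gjb2. Each motif was searched on both strands, and its share is that of 32851 promoter windows of the same 250 bases in the RefSeq table. Positions are those of the first base of a match as printed, with -1 the last base before the start, and no match overlapped another. They count from the RefSeq start, which GENCODE vM21 shares for Gjb6 and Gjb2, whereas its Gja1 transcripts start 30 or 32 bases further downstream. The GC box GGGCGG, present in 32.7% of windows, occurred in the Gjb2 window on the gene's own strand at position -211 from the start and, as CCGCCC on the other strand, at -126. Neither the NFI motif TTGGCA (12.3% of windows), the SOX core ACAAAG (16.5%) nor the TATA box TATAAA (12.4%) matched any of the 3. A pair of motifs was added after the windows had been read. The AP-1 site TGAGTCA, in 4.5% of windows, began at -19 in the Gja1 window, and the box TTAAAA, in 17.7%, began at -29 in the Gjb2 window and, as TTTTAA on the other strand, at -236 in the Gja1 window. The Gjb6 window held none of the 6. No motif was thus shared by all 3 windows, and a match is a description of letters, not of a bound factor.

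In astrocyte-tagged RNA the connexins known from astrocytes rose and the other 5 genes fell. Gja1, Gjb6 and Gjb2 were higher than in the unbound RNA by factors of 3.00 to 8.53 in CPM of the same mouse, whereas the oligodendrocyte connexins Gjb1 and Gjc3, the neuronal connexin Gjd2 and both pannexins were depleted. All 8 passed the test, 3 higher and 5 lower. Of the 13319 genes tested in this comparison 51.6% were called, 26.8% higher and 24.8% lower, so a call by itself was common, and the median log2 fold change was -1.0 over the 8 genes against 0.04 over all tested genes. The ranges of the 3 positive and 3 negative fractions did not overlap for any of the 8. How many of all tested genes were likewise apart is not given here, so this count does not single out the 8 genes.

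Gja1, the major connexin of astrocytes, reached 889, 1287 and 1264 CPM in the positive fractions of mice 290, 293 and 294 and 177, 209.7 and 199.9 CPM in their negative fractions. Every positive fraction was far above every negative one, and mouse 290 was the lowest in both. The log2 fold change was 2.90 (SE 0.18, adjusted p = 5.17e-05, edgeR quasi-likelihood test with Benjamini-Hochberg adjustment, as for all fold changes that follow).

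Gjb6, the second connexin of astrocytes, was at 391, 473 and 506 CPM in the positive and at 65.6, 60.4 and 59.3 CPM in the negative fractions. Its log2 fold change of 3.23 (SE 0.17, adjusted p = 3.37e-05) was the highest of the 8. Mouse 290 again had the lowest positive fraction, but here it had the highest negative one. Gjb2, a partner of Gjb6 in the inner ear that is also found in astrocytes and in the meninges, was at 35.8, 36.4 and 38.8 CPM against 9.79, 12.1 and 12.9 CPM. The 3 positive fractions lay close together and above all negative ones, and the log2 fold change was 2.01 (SE 0.17, adjusted p = 0.00011). The 5 markers of leptomeningeal fibroblasts, other cells known to carry Gja1, Gjb6 and Gjb2, summed to 58.0 to 69.0 CPM in the positive and 78.7 to 96.2 CPM in the negative fractions, with 2 of 5 called higher and 3 lower. The 3 choroid plexus markers Ttr, Folr1 and Kcne2 summed to 2739.9 to 3307 CPM against 450 to 593 CPM, all 3 called higher, and their part in the enrichment of Gja1, Gjb6 and Gjb2 was not tested.

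**Figure D1:**
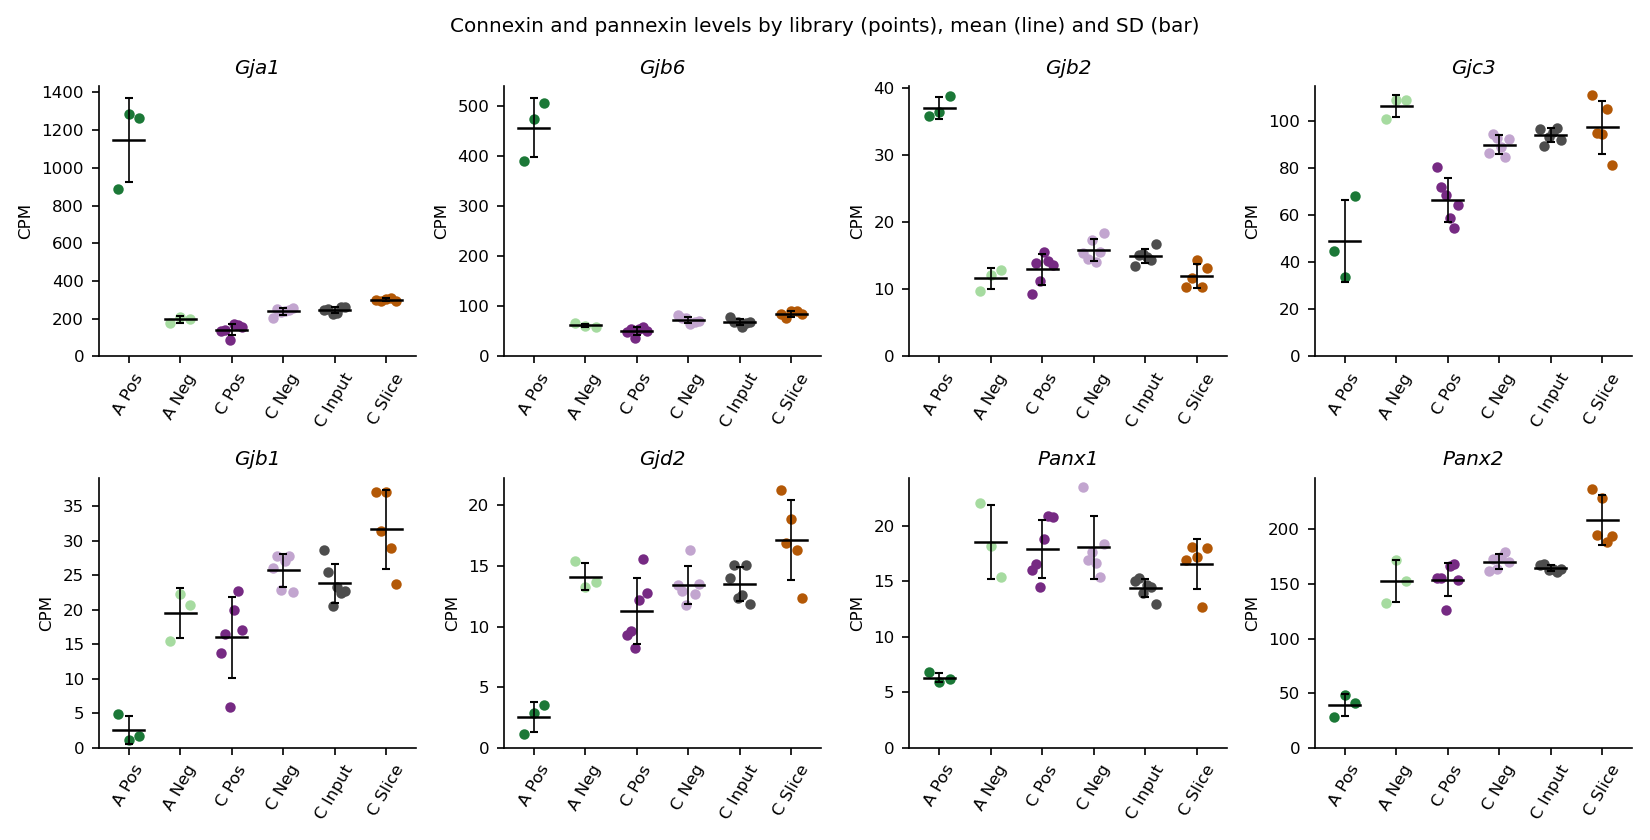
Level of each of the 8 genes in every library, in CPM, with 1 panel per gene, 1 point per library and a bar at the group mean (A for Aldh1l1-NuTRAP and C for Cx3cr1-NuTRAP, with Pos, Neg, Input and Slice for the positive, negative, input and whole-tissue libraries). Gja1, Gjb6 and Gjb2 stand highest in A Pos, at 1147, 457 and 37.0 CPM on average, and Gjb1, Gjd2, Panx1 and Panx2 stand lowest there, below every other group.

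The oligodendrocyte connexins fell, Gjb1 further than Gjc3. Gjb1, which forms channels between the layers of myelin and lies on the X chromosome (101377337 to 101385624, plus strand), was at 4.87, 1.07 and 1.68 CPM in the positive and 15.4, 22.3 and 20.7 CPM in the negative fractions. Mouse 290 had the highest positive and the lowest negative fraction, and the groups stayed apart (log2 fold change -2.65, SE 0.53, adjusted p = 0.00498). Leaving out 1 mouse moved it between -3.64 and -2.14, and without mouse 294 the call was lost, at -2.34 (adjusted p = 0.0535).

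Gjc3, a connexin of oligodendrocytes on chromosome 5 (137953809 to 137962959, minus strand), was at 44.9, 33.8 and 68.0 CPM against 101, 109 and 109 CPM. The positive fractions were widely spread, mouse 294 being the highest, and none reached the negative ones. The log2 fold change of -0.78 (SE 0.25, adjusted p = 0.0323) lost its call without mouse 290 (-0.79, adjusted p = 0.162) or without mouse 293 (-0.57, adjusted p = 0.178). The 4 oligodendrocyte markers Mog, Mbp, Mag and Ugt8a fell alongside, from 2666 to 3956 CPM in sum in the negative fractions to 405 to 489 CPM in the positive ones.

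Gjd2, on chromosome 2 (114009601 to 114013619, minus strand), was at 1.12, 2.90 and 3.50 CPM in the positive and 15.4, 13.3 and 13.7 CPM in the negative fractions. All 3 positive fractions were low, and the log2 fold change was -2.12 (SE 0.38, adjusted p = 0.00285). The 5 neuronal markers Snap25, Rbfox3, Syt1, Slc17a7 and Gad1 summed to 1163 to 1622 CPM there against 5062 to 6411 CPM. In these bulk fractions, RNA from fewer cells of a type and less RNA per cell cannot be told apart.

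Both pannexins were depleted. Panx1, which is expressed in many cell types and opens to release ATP, lies on chromosome 9 (15005785 to 15045478, minus strand) and was at 6.80, 5.94 and 6.24 CPM against 22.1, 18.2 and 15.4 CPM. The positive fractions varied little, and the log2 fold change was -1.21 (SE 0.21, adjusted p = 0.00262). Panx2, a mainly intracellular relative that is abundant in the brain, lies on chromosome 15 (89059726 to 89070907, plus strand) and was at 28.5, 48.5 and 40.9 CPM against 133, 172 and 153 CPM. All positive fractions were below all negative ones (log2 fold change -1.61, SE 0.22, adjusted p = 0.000827).

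**Figure D2:**
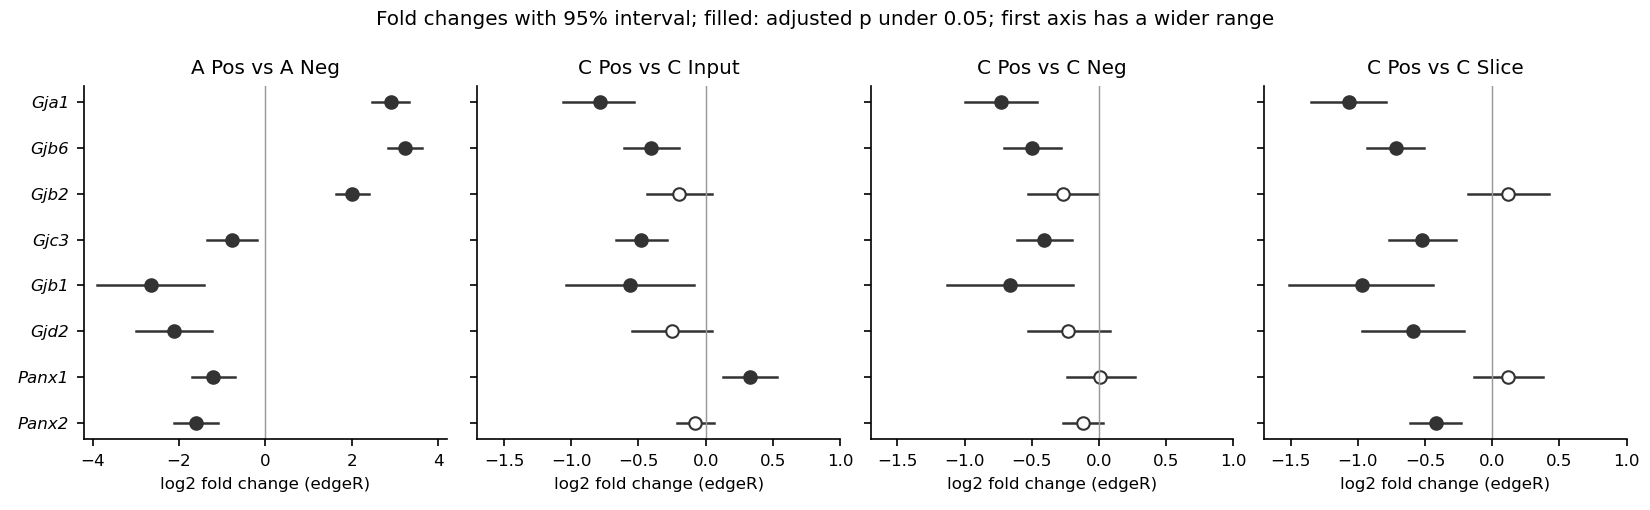
Log2 fold change of each of the 8 genes in 4 comparisons between fractions, with bars for the 95% interval and filled points for an adjusted p below 0.05. Gja1, Gjb6 and Gjb2 lie at 2.90, 3.23 and 2.01 in the Aldh1l1 positive against negative fraction, where the other 5 genes lie below 0, and Gja1 and Gjb6 lie below 0 in each Cx3cr1 comparison.

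The mix of the 8 transcripts changed accordingly. Between genes, levels were compared as CPM per kilobase of exonic length. In astrocyte-tagged RNA the order was Gja1 at 373, Gjb6 at 217, Gjb2 at 15.4, Gjc3 at 12.2, Panx2 at 11.6, Gjb1 at 1.49, Panx1 at 1.10 and Gjd2 at 0.871 CPM per kilobase. In the Cx3cr1 input the order was Gja1 at 80.1, Panx2 at 48.4, Gjb6 at 32.4, Gjc3 at 23.5, Gjb1 at 14, Gjb2 at 6.20, Gjd2 at 4.70 and Panx1 at 2.51 CPM per kilobase. Panx2 was the second of the 8 in the input, which came from other mice, and also in the Aldh1l1 negative fraction, at 44.9 CPM per kilobase. In astrocyte-tagged RNA it was the fifth. Gja1, Gjb6 and Gjb2 together made up 95.3%, 95.4% and 96.3% of the summed CPM per kilobase in the 3 Aldh1l1 positive fractions and 50.8% to 52.9% in the negative ones. The 2 pannexins made up 1.87% to 2.24% against 24.5% to 26.8%, and Gjb1 with Gjc3 1.33% to 2.74% against 19.5% to 20.7%.

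**Figure D3:**
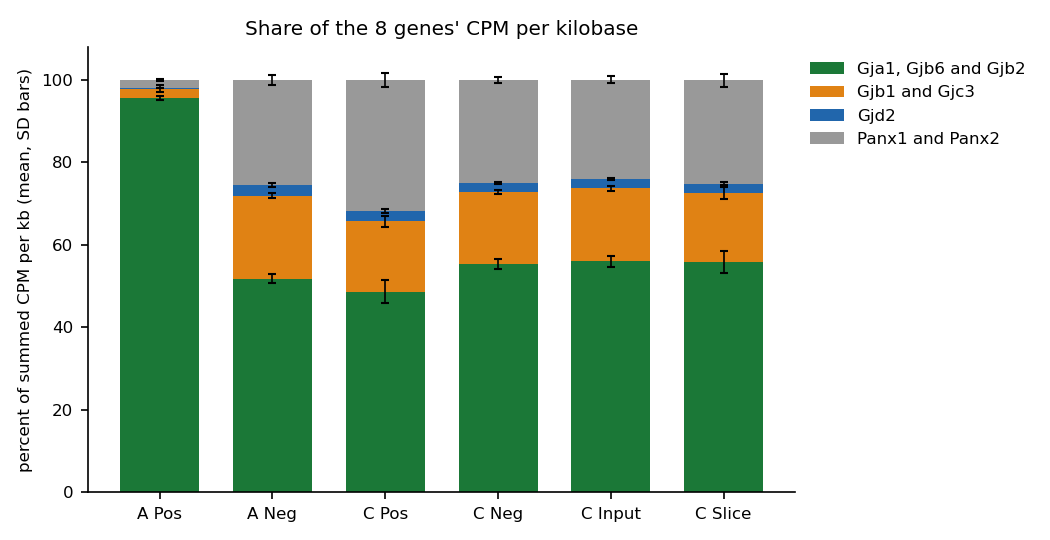
Shares of the 8 genes in their summed CPM per kilobase, in percent, averaged over the libraries of each group and stacked to the total. The shares of Gja1, Gjb6 and Gjb2 sum to a mean of 95.7% in the Aldh1l1 positive fraction and of 51.8% in its negative fraction, whereas the 4 Cx3cr1 groups have means between 48.7% and 56.0%.

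In microglia-tagged RNA 4 glial connexins were mildly depleted, and neither pannexin was called lower than in the input. Against the input of the same mice, Gja1, Gjb6, Gjc3 and Gjb1 were called lower and Panx1 higher, while Gjb2, Gjd2 and Panx2 did not pass the test. Thus 1 of 8 was called higher and 4 lower, where 48.9% of the 13838 tested genes were called, 23.3% higher and 25.6% lower. The median log2 fold change was -0.33 over the 8 genes and 0.00 over all tested genes.

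Gja1 spanned 86.1 to 170 CPM (median 146) over the 6 positive fractions and 225 to 263 CPM (median 248) over the inputs. The ranges did not overlap, mouse 194 being the lowest and mouse 209 the highest of the positive fractions. The log2 fold change was -0.79 (SE 0.12, adjusted p = 0.000153) and -0.60 (adjusted p = 5.64e-07) without mice 155, 192 and 194, and per mouse the ratio to input lay between 0.383 in mouse 194 and 0.738 in mouse 209.

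Gjb6 ranged from 36.7 to 57.7 CPM with a median of 53.2, against 59.4 to 78.3 CPM with a median of 67.9 in the inputs. All positive fractions were again below all inputs, with a log2 fold change of -0.41 (SE 0.09, adjusted p = 0.00296) that was -0.22 (adjusted p = 0.00986) without the 3 mice. Gjb2 ranged from 9.21 to 15.5 CPM, with a median of 13.7, and overlapped the input range of 13.5 to 16.7 CPM, with a median of 14.9. Its log2 fold change of -0.20 (adjusted p = 0.167) had a 95% interval from -0.44 to 0.05 and was -0.06 (adjusted p = 0.676) without the 3 mice. The 5 astrocyte markers summed to 1933 to 2869 CPM in the positive fractions and 2900.1 to 3366 CPM in the inputs, 3 of 5 being called lower and 2 of 5 without the 3 mice.

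Gjc3 ranged from 54.6 to 80.6 CPM, median 66.5, below the inputs at 89.4 to 97.3 CPM, median 94.3. The ranges did not overlap, and the log2 fold change was -0.48 (SE 0.09, adjusted p = 0.000615) with all mice and -0.66 (adjusted p = 3.44e-07) without mice 155, 192 and 194. Gjb1 was more variable, from 5.92 CPM in mouse 194 to 22.7 CPM, with a median of 16.8, against 20.6 to 28.7 CPM in the inputs, median 23.0. Its log2 fold change of -0.56 (SE 0.22, adjusted p = 0.0482) passed the threshold narrowly. It was called in 5 of the 13 alternative settings and was -0.17 (adjusted p = 0.177) without mice 155, 192 and 194, although -0.40 (adjusted p = 0.0169) without mouse 194 alone. The same 4 oligodendrocyte markers were all called lower, or 3 of 4 without the 3 mice, and summed to 726 to 1905 CPM against 2160.2 to 2541 CPM.

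Panx1 was the single gene of the 8 that was called higher in microglia-tagged RNA. It ranged from 14.5 to 20.9 CPM, with a median of 17.7, and from 13 to 15.3 CPM in the inputs, with a median of 14.6. The ranges overlapped, but the positive fraction exceeded the input in each of the 6 mice, by factors of 1.03 in mouse 194, 1.07 in mouse 155 and 1.09 in mouse 192, and of 1.28, 1.44 and 1.60 in mice 209, 210 and 277. The excess was thus smallest in the libraries that stood apart. The log2 fold change was 0.33 (SE 0.09, adjusted p = 0.0103), 0.54 (adjusted p = 0.000284) without those 3 mice and 0.26 (adjusted p = 0.0609) without mouse 277. Against the negative fraction, which ranged from 15.4 to 23.5 CPM, the difference was 0.01 (adjusted p = 0.954), and without the 3 mice 0.29 (adjusted p = 0.0437). Endothelial markers also rose over the input, 2 of 3 being called higher, Cldn5 at 0.61 (adjusted p = 0.0277) and Pecam1 at 0.78 (adjusted p = 0.000119), with Flt1 at 0.10 (adjusted p = 0.726). They summed to 52.1 to 115 CPM in the positive fractions and 56.1 to 70.0 CPM in the inputs, and none was at 0 in any of these libraries. Without the 3 mice, 3 of 3 endothelial markers were called higher than in the input, and of 5 neuronal markers 2 were higher and 1 lower. Over all 14160 genes then tested 4227 were higher and 4129 lower, and the part of those cells in the rise of Panx1 was not tested.

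Panx2 ranged from 126 to 168 CPM with a median of 155, and the inputs from 161 to 168 CPM with a median of 164. Mouse 194 was far below the other 5, and the log2 fold change of -0.08 (adjusted p = 0.326) had an interval from -0.21 to 0.06. Gjd2 ranged from 8.22 to 15.6 CPM with a median of 10.9, within reach of the inputs at 11.9 to 15.1 CPM (log2 fold change -0.25, adjusted p = 0.151). Its ratio to input was 0.636 to 0.663 in mice 155, 192 and 194 and 0.967 to 1.07 in mice 209, 210 and 277. Of the 5 neuronal markers, only Syt1 was called lower, and their sum was 4210 to 6408 CPM against 5850.2 to 6202 CPM.

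**Figure D4:**
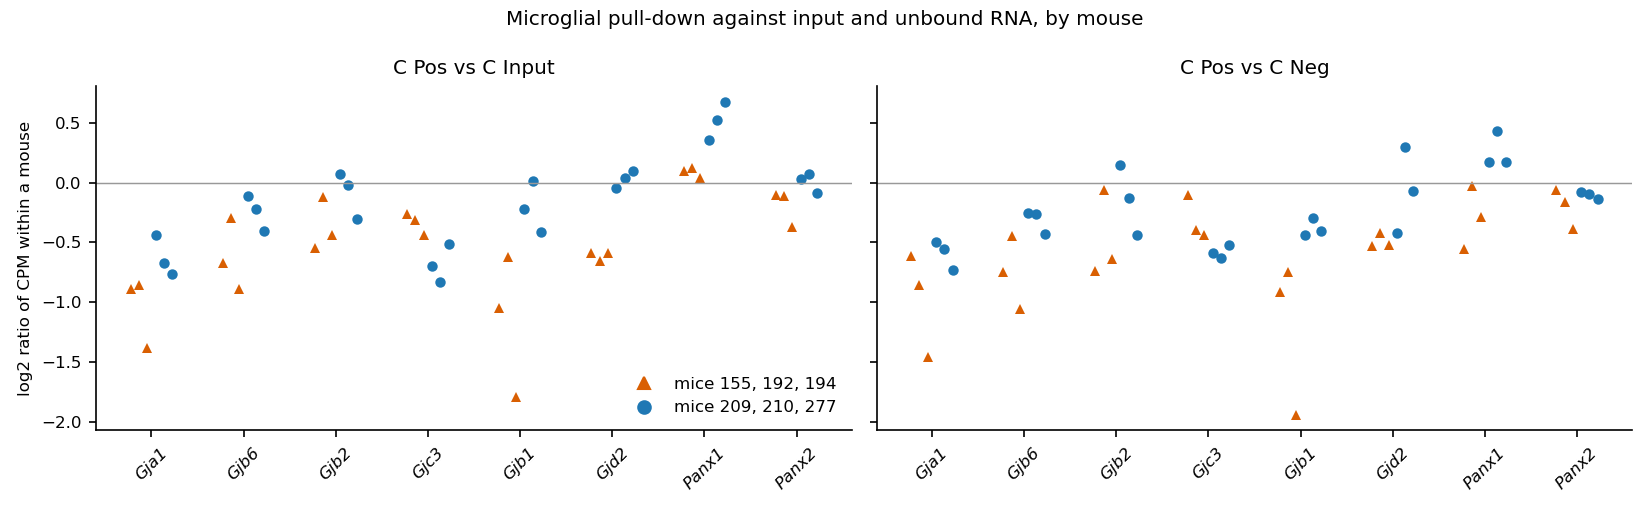
Ratio of CPM in the positive fraction to CPM in the comparison fraction of the same mouse for each of the 8 genes, 1 point per mouse. In the Cx3cr1 line against input, Gja1 and Gjb6 lie below 1 in 6 of 6 mice and Panx1 above 1 in 6 of 6. There the points of mice 155, 192 and 194 lie below those of the other 3 mice for Gja1, Gjb1, Gjd2, Panx1 and Panx2, above them for Gjc3, and among them for Gjb6 and Gjb2.

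The other reference fractions of the Cx3cr1 line gave related values, and they share the positive fraction with the comparison above. Against the negative fraction, 0 of 8 were called higher and 4 lower by edgeR (12.8% and 11.6% of 13776 genes, 24.3% in all). DESeq2, which called 4059 genes in all, gave the same counts of the 8. At an unadjusted p under 0.05 the counts were 0 and 5, with no share of all genes given here. The 4 called lower had log2 fold changes of -0.73 for Gja1 (adjusted p = 0.000803), -0.50 for Gjb6 (adjusted p = 0.00237), -0.66 for Gjb1 (adjusted p = 0.0399) and -0.41 for Gjc3 (adjusted p = 0.0066). Without mice 155, 192 and 194 these were -0.56, -0.28, -0.34 and -0.55, with 1 gene called higher and 4 lower, beside 2679 and 2358 of 14075 genes. The call of Gjb1 was lost without mouse 155, 192, 209 or 277 alone (adjusted p = 0.0905, 0.135, 0.0573 and 0.0772). Against whole tissue, 0 were called higher and 6 lower (27.5% and 24.3% of 13470 genes, 51.8% in all). DESeq2, which called 7264 genes in all, gave the same counts, as did an unadjusted p under 0.05, whose share of all genes is not given here. Gja1 was at -1.07 (adjusted p = 2.84e-05), Gjb6 at -0.72, Gjb1 at -0.97, Gjc3 at -0.52, Gjd2 at -0.59 and Panx2 at -0.42. Gjb2 and Panx1 were both at 0.12 in that comparison (adjusted p = 0.496 and 0.439). Without mice 155, 192 and 194, 0 were called higher and 5 lower, and over all 13715 genes then tested 2365 were higher and 2378 lower. Gjd2 was then at -0.22 (adjusted p = 0.394), Gjb1 at -0.58 (adjusted p = 0.0321) and Panx1 at 0.31 (adjusted p = 0.137). Without mouse 192 alone Gjd2 was at -0.45 (adjusted p = 0.0884).

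Whole tissue and input already differed before the pull-down. Gja1 was at 298, 292, 302, 311 and 293 CPM in the whole tissue of mice 192, 194, 209, 210 and 277, all above the inputs. Panx2 was at 237, 195, 229, 188 and 194 CPM, also all above the inputs. In the input against whole tissue, 1 of 8 genes was called higher and 5 lower (16.3% and 14.2% of 13608 genes, 30.5% in all). Gja1 (-0.28, adjusted p = 0.00126), Gjb6 (-0.32, adjusted p = 0.00267), Gjb1 (-0.42, adjusted p = 0.0128), Gjd2 (-0.36, adjusted p = 0.0415) and Panx2 (-0.35, adjusted p = 0.00114) were lower in the cleared homogenate and Gjb2 was higher (0.30, adjusted p = 0.0348). Gja1, Gjb6 and Panx2 were called in all 12 alternative settings, but Gjb1 in 9, Gjb2 in 7 and Gjd2 in 6 of them. Fitted with all 6 groups together, 0 genes were called higher and 3 lower, without Gjb1, Gjb2 and Gjd2. Leaving out 1 mouse ended the call of Gjb1 for mouse 194 or 209 (adjusted p = 0.0573 and 0.0706), of Gjb2 for mouse 192, 194, 210 or 277 (0.0503 to 0.199) and of Gjd2 for mouse 155, 192, 194 or 209 (0.0527 to 0.157).

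Unbound RNA was also compared with its input. In the negative fraction against input, 0 of the 8 genes were called in either direction by edgeR (1.41% higher and 4.7% lower of 13748 genes, 6.11% in all). At an unadjusted p under 0.05, where the share of all genes is not given here, there was 1, Panx1. It had the highest difference, at 0.34 (adjusted p = 0.0554), with its range of 15.4 to 23.5 CPM just above that of the inputs and the negative fraction higher in 6 of 6 mice. DESeq2 and the fit with the mouse as a block each called Panx1 higher, the latter at 0.32 (adjusted p = 0.00773). Those fits called more of the 13748 genes, 756 higher and 1290 lower by DESeq2 and 2431 and 2684 with the block.

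Between the lines, the contrast in bound RNA was large and that in unbound RNA was not. In the Aldh1l1 against the Cx3cr1 positive fraction, 3 of 8 genes were called higher and 4 lower (30.6% and 33.1% of 13676 genes, 63.7% in all). The log2 differences were 3.34 for Gja1, 3.48 for Gjb6 and 1.83 for Gjb2, and -2.40 for Gjb1, -1.83 for Gjd2, -1.19 for Panx1 and -1.66 for Panx2. Gjc3 differed by -0.14 (adjusted p = 0.569), with overlapping ranges of 33.8 to 68.0 and 54.6 to 80.6 CPM. In the negative fractions, 0 of 8 were called by edgeR (0.125% of 13613 genes in each direction, 0.25% in all). At an unadjusted p under 0.05, 1 was higher and 3 were lower, but the share of all genes at that threshold is not given here. Gjb2 was at -0.41 (adjusted p = 0.188) and Gjc3 at 0.27 (adjusted p = 0.128). Gjc3 was called by DESeq2 (0.28, adjusted p = 0.00121), which called 517 genes in all. The lines were different mice, so that line, harvest and batch cannot be told apart in these values.

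Whether bound over unbound RNA changed by line was tested with an interaction term. It was called for 7 of 8 genes, 3 higher and 4 lower (25.5% and 29.9% of 13983 genes, 55.4% in all). On the log2 scale it was 3.59 for Gja1 (adjusted p = 3.28e-10), 3.68 for Gjb6 (adjusted p = 1.19e-11) and 2.24 for Gjb2 (adjusted p = 2.55e-08). It was -2.07 for Gjb1 (adjusted p = 0.00217), -1.92 for Gjd2 (adjusted p = 7.92e-05), -1.26 for Panx1 (adjusted p = 9.82e-05) and -1.53 for Panx2 (adjusted p = 6.66e-07). Leaving out 1 mouse moved the value of Gjb1 between -2.99 and -1.57. Gjc3, which fell in both lines, had an interaction of -0.42 (adjusted p = 0.125), which was called with scaling to total counts (-0.69, adjusted p = 0.0128) and without mouse 294 (-0.70, adjusted p = 0.0124), and was -0.21 (adjusted p = 0.549) without mice 155, 192 and 194.

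Across all 6 groups the order of mean levels differed by gene. Gja1 ran from the Aldh1l1 positive fraction at 1147 ± 224 CPM (SD, n = 3) through whole tissue at 299 ± 7.68 (n = 5), input at 246 ± 15.7 (n = 6), the Cx3cr1 negative fraction at 238 ± 17.5 (n = 6) and the Aldh1l1 negative fraction at 196 ± 16.8 (n = 3) to the Cx3cr1 positive fraction at 141 ± 30.6 (n = 6). The input overlapped the Cx3cr1 negative fraction, which overlapped the Aldh1l1 negative fraction, and the other neighbouring groups were apart. Gjb6 had a like order, from 457 ± 59.3 to 50.9 ± 7.59 CPM, with only the first and the last group apart from their neighbours. For Gjb2 only the Aldh1l1 positive fraction, at 37.0 ± 1.57 CPM, was apart, and the other 5 groups lay between 11.6 and 15.9 CPM on average. Gjb1, Gjd2, Panx1 and Panx2 were lowest in the Aldh1l1 positive fraction, at 2.54 ± 2.04, 2.51 ± 1.24, 6.33 ± 0.438 and 39.3 ± 10.1 CPM, apart from the next group. Gjc3 was also lowest there, at 48.9 ± 17.4 CPM, but overlapped the Cx3cr1 positive fraction at 66.5 ± 9.33 CPM.

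Ratios between genes of one library need no scaling factor. Gjb6 per Gja1 was 0.368 to 0.440 in the Aldh1l1 positive and 0.288 to 0.371 in the negative fractions, a mean log2 difference of 0.34 ± 0.09 (SD, n = 3, higher in 3 of 3 mice, exact sign-flip test, p = 0.25, the smallest that 3 mice allow). In the Cx3cr1 line the same ratio was also higher in the positive fraction than in input, by 0.40 ± 0.13 (SD, n = 6, 6 of 6 mice, exact p = 0.0312, adjusted p = 0.114), and than in the negative fraction, by 0.26 ± 0.20 (n = 6, 5 of 6 mice). Gjb2 per Gjb6 against the negative fraction differed by -1.20 ± 0.43 (n = 3, lower in 3 of 3 mice) in the Aldh1l1 line and by 0.22 ± 0.20 (n = 6, higher in 5 of 6 mice) in the Cx3cr1 line, and the difference between the lines was not tested. Panx1 per Panx2 was higher in the positive fraction by 0.44 ± 0.20 (n = 3) against the negative fraction in the Aldh1l1 line. In the Cx3cr1 line the difference was 0.14 ± 0.34 (n = 6, higher in 5 of 6 mice) against the negative fraction and 0.40 ± 0.21 (n = 6, higher in 6 of 6) against the input. Of the 20 ratio tests, all two-sided, 4 had an unadjusted p under 0.05 and 0 passed after adjustment. None could have passed, because the smallest p that the sign-flip test allows was 0.25 with 3 mice, 0.0625 with 5 and 0.0312 with 6.

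Other connexins and pannexins in the table were mostly near or below the limit of testing. Gja4, a connexin of vessel walls, was at -0.62 (adjusted p = 0.23) and -0.09 (adjusted p = 0.77) in the Aldh1l1 positive against negative fraction and the Cx3cr1 positive fraction against input, and Gjc1, found in mural cells and some neurons, at -0.01 (adjusted p = 0.983) and 0.01 (adjusted p = 0.957). Without mice 155, 192 and 194 the values against input were 0.55 (adjusted p = 0.0901) for Gja4 and 0.22 (adjusted p = 0.398) for Gjc1. A further 12, not tested, did not exceed 1.62 CPM in any library, the highest being Gjd3. Gja3 had 0 counts throughout, which allows up to 0.112 to 0.704 CPM depending on the library.

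Genes that act with these channels were taken from a pair of lists. Of 6 junction partners and regulators, all tested, 4 were called higher and 1 lower in astrocyte-tagged RNA. Mlc1 (3.42, adjusted p = 3.37e-05) and Hepacam (3.07, adjusted p = 3.37e-05), which encode membrane proteins of astrocyte endfeet and contacts, rose with Gja1. The actin-binding Dbn1 rose by 2.28. The sum of the 9 cytoskeletal genes, which include Dbn1, was 2482, 3578 and 4351 CPM in the positive fractions of mice 290, 293 and 294. In their negative fractions it was 1070.4, 1175 and 1112 CPM, and any link to the rise of Dbn1 was not tested. Nov, which encodes a secreted protein and was named after its value was seen, fell by 2.39. In microglia-tagged RNA against input 1 was called higher and 3 lower, with Mlc1 at -0.42 (-0.21 without mice 155, 192 and 194) and Hepacam at -0.11 (adjusted p = 0.165). The 1 called higher was Dbn1 (3.35, adjusted p = 0.00223), at 3497, 1970.2 and 3616 CPM in mice 155, 192 and 194 and 146 to 745 CPM in the other three. Without those mice it was at 1.08 (adjusted p = 0.319), and the 6 genes then held 0 called higher and 3 lower.

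Of the 11 other large-pore channel genes, 5 were tested in the Aldh1l1 and 6 in the Cx3cr1 line. Lrrc8a, the obligatory subunit of volume-regulated anion channels, rose by 1.57 (adjusted p = 0.000826) in astrocyte-tagged RNA and fell by 0.34 in microglia-tagged RNA against input. It was the 1 gene of the list called higher in the former, where Lrrc8d was the 1 called lower (-0.46, adjusted p = 0.0262, named after its value was seen). In the latter, 1 was called higher and 4 lower. The subunits Lrrc8b (-1.92, adjusted p = 8.21e-06) and Lrrc8c (-1.44, adjusted p = 1.5e-06) fell furthest, and Calhm2, of the calcium homeostasis modulator family, rose by 1.11 (adjusted p = 8.74e-05) with Panx1. In astrocyte-tagged RNA Calhm2 was at -0.55 (adjusted p = 0.103).

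The genes with the most similar profile over the 6 group means, among 14109 genes, were found by the root-mean-square (RMS) difference of centred mean log2 CPM. They were Rftn2 (0.0881) and Fads2 (0.0891) for Gja1, Adora2b (0.0464) and Asrgl1 (0.0675) for Gjb6, and Cpne2 (0.0617) and Ccdc122 (0.0844) for Gjb2. For Gjb1 they were S1pr5 (0.169) and Gbp11 (0.179), and for Gjc3 Sh3bp4 (0.0504) and Pkia (0.0563). For Gjd2 they were Oprm1 (0.0675) and Onecut2 (0.0934), for Panx1 Tspan17 (0.0369) and 2410018L13Rik (0.0657), and for Panx2 Efcab10 (0.038) and Hapln2 (0.0415). Among the 8 genes themselves, the closest pairs were Gja1 with Gjb6 (0.192) and Gjd2 with Panx2 (0.197). With 6 points per profile these are descriptions of likeness only.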

How the data were processed

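TRAP-RNAseq was analysed in 29 libraries from 3 Aldh1l1-NuTRAP and 6 Cx3cr1-NuTRAP mice. The authors prepared strand-specific polyA libraries, used Strand NGS to align reads to mm10 and to count them over RefSeq genes. Their alignment was directional, and reads in the wrong orientation were discarded. The deposited raw columns are expected counts, with 81.4% of nonzero values not whole (tolerance 0.001), and were rounded to whole numbers. The deposited log2 columns, normalized by the authors with DESeq and baseline-transformed, were not used. Of 36172 gene rows, 14057 were 0 in every library. The number of per-sample columns without a sample was 0.

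Groups followed the titles of the columns. Library totals ranged from 4260949 to 26857866, and the upper limits given for counts of 0 cover counting error only, whereas the intervals of fold changes come from the fits over mice. A gene was tested if all libraries of some group in the fit exceeded 20 counts, using edgeR 4.0.16 on the whole table (TMM, robust quasi-likelihood, R 4.3.3) and a Benjamini-Hochberg adjusted threshold of 0.05. CPM used total counts, so ratios of CPM differ from TMM-scaled fold changes. Ratios between genes were tested with exact sign-flip permutation tests (Python 3.11.15, NumPy 2.4.6). Alternatives were DESeq2 1.42.0, relative log expression and total-count scaling, no filter, 1 fit over 6 groups, a mouse block, leaving out each mouse and, chosen after the data were seen, leaving out mice 155, 192 and 194 together. Scripts were tested on simulated data. Replicates are separate mice. The main fits had no term for the mouse, and with the mouse as a block the Aldh1l1 comparison called 9430 genes against 6868. The fractions share mouse numbers because they came from the same animals. The same-numbered deviations correlated above 0.1 in 3 of 3 Aldh1l1 pairs (0.44 to 0.64), in 3 of 6 for Cx3cr1 positive and input, in 3 of 6 for positive and negative, in 5 of 6 for negative and input, and in 0 of 5 pairs with whole tissue.

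The 8 genes and all lists were chosen with earlier results of these data known. Named genes were all 8, every other connexin or pannexin tested, up to 4 called genes per further list by size of change in the Aldh1l1 positive against negative or Cx3cr1 positive against input comparison, and the 2 nearest profiles per gene. Promoter windows were found for 7 of the 8 genes in RefSeq (GRCm38.p6, compared with GENCODE vM21); Panx2 had none. Some genes that this rule or the lists cover are not reported here.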

Additional observations from a re-analysis of the deposited data

Results flagged for a closer look

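Of 32 tests of a gene within a group of 5 or 6 libraries, 5 found a library far from the rest by Dixon's criterion, which chance meets in about 1 in 20 groups. In the Cx3cr1 negative fraction, Gja1 in mouse 155 was at 205 CPM, with the next library at 237. In the same fraction Gjd2 in mouse 209 was at 16.3 CPM (next 13.5) and Panx1 in mouse 155 at 23.5 CPM (next 18.4). Panx1 in the whole tissue of mouse 210, the shallowest library, was at 12.7 CPM (next 16.9). Panx2 in the positive fraction of mouse 194 was at 126 CPM (next 154).

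The log2 ratio of positive to negative fraction differed between the Aldh1l1 and Cx3cr1 lines by the interaction test of edgeR. The difference was 3.59 for Gja1, 3.68 for Gjb6 and 2.24 for Gjb2, and -2.07 for Gjb1, -1.92 for Gjd2, -1.26 for Panx1 and -1.53 for Panx2. The 3 connexins of astrocytes rose in the Aldh1l1 line, and of these Gja1 and Gjb6 fell in the Cx3cr1 line.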

How the results depend on the processing

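Of the log2 fold changes of the 8 genes recomputed under alternatives, 883 kept their direction and side of the threshold, 34 lost the call, 9 gained it and 10 changed sign. Sign changes affected values near 0. Without mice 155, 192 and 194, Gjd2 was at 0.06 and Panx2 at 0.02 in the Cx3cr1 positive fraction against input, and Gjc3 at 0.10 between the positive fractions of the lines. Leaving out 1 mouse, the latter ranged from -0.44 to 0.07. Panx1 against the Cx3cr1 negative fraction was -0.01 with total counts and -0.07 to 0.13 leaving out 1 mouse (-0.02 without mouse 209, -0.07 without 210, -0.03 without 277), -0.01 to 0.19 against whole tissue and -0.10 to 0.19 between the negative fractions. Of the recomputed ratios 121 kept their direction and 3 changed sign, Gjb2 to Gjb6 in negative against input (-0.04 to 0.02) and Gjb1 to Gjc3 in positive against input (-0.38 to 0.06), leaving out 1 mouse.

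Among counts of the 8 genes called, the Cx3cr1 positive against negative count rose to 1 higher without the 3 mice. Negative against input gave 1 higher by DESeq2 and 1 with the mouse block, input against whole tissue 0 higher and 3 lower in the fit of all 6 groups, and the negative fractions of the lines 1 higher by DESeq2. Leaving out 1 mouse, the Aldh1l1 count of 5 lower was 4 throughout. In the Cx3cr1 line the ranges were 0 to 1 higher and 3 to 4 lower against input, 3 to 4 lower against negative and 5 to 6 lower against whole tissue. They were 0 to 1 higher for negative against input, 0 to 1 higher and 3 to 6 lower for input against whole tissue, and 4 to 5 lower for the interaction. The block with the mouse as a pair changed 1 further call, Gjd2 against whole tissue (-0.57, adjusted p = 0.0515), which was also lost without mouse 192 (-0.45) and without the 3 mice (-0.22, adjusted p = 0.394).

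Scaling to total counts moved the median log2 fold change of all genes from 0.037 to -0.311 in the Aldh1l1 comparison and turned its calls from 3569 higher and 3299 lower into 2436 and 4824. Between the positive fractions it turned 4188 and 4530 into 2875 and 6312 (median -0.077 to -0.387), for the interaction 3572 and 4179 into 2600 and 5719 (median -0.11 to -0.385), and between the negative fractions 17 and 17 into 8 and 20. No direction of the 8 genes changed with it in the first 3. Counts over all genes moved by over 1.5 times for negative against input (840, but 2046 by DESeq2, 281 unfiltered, 59 in the fit of all groups, 5115 with the block, 3815 without mouse 155 and 0 to 3 without any other mouse) and between the negative fractions (34, but 517 by DESeq2, 14 unfiltered and 0 to 133 leaving out 1 mouse). They did so for input against whole tissue (4144, but 2458 in the fit of all groups and 2726, 2549 and 2587 without mouse 192, 194 or 209), in the Aldh1l1 line (6868, but 3662 and 3587 without mouse 293 or 294) and for Cx3cr1 positive against negative (3352, but 1747 and 2019 without mouse 192 or 194 and 5037 without the 3 mice). The cause was not tested.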
